A study of Mus musculus with 4 samples.

Results

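The genes described here encode the machinery by which cells show peptides to CD4 T cells on MHC class II molecules. They were chosen by symbol from the feature table, and all 10 were found among its 31053 genes, with 1 entry each: H2-Aa, H2-Ab1, H2-Eb1, Cd74, Ciita, H2-DMa, H2-DMb1, H2-DMb2, H2-Oa and H2-Ob. They were read in 4 single-cell RNA libraries of mouse lung, 1 library per group. The mice were B6 animals that had received KP lung tumour cells into the bloodstream, which seeds tumours in the lung. The tumour cells were knocked out for the histone chaperone gene Asf1a (KO) or were wild type for it (WT), so in every group the host cells carried intact Asf1a. The mice were given an antibody against PD-1 (clone 29F.1A12, at 200 µg per mouse, 3 times a week for 1 week) or an isotype control IgG. The groups are KO anti-PD-1, KO IgG, WT anti-PD-1 and WT IgG. Perfused lungs were digested with collagenase D and DNase I, live cells were sorted by DAPI, and libraries were made with a 10x Genomics 3′ v2 kit. The sources used here do not say how many mice went into a library or how many knockout clones were injected.

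A class II molecule is a pair of an alpha and a beta chain: H2-Aa and H2-Ab1 encode the pair called I-A, and H2-Eb1 encodes the beta chain of I-E. B6 mice carry a defective alpha chain gene for I-E, so that molecule does not reach the cell surface although H2-Eb1 is transcribed. Cd74 encodes the invariant chain, which fills the peptide groove until the complex arrives in an endosome. There H2-DM, made from H2-DMa with H2-DMb1 or H2-DMb2, exchanges the remaining fragment of the invariant chain for antigen peptides, and H2-DO, made from H2-Oa and H2-Ob, restrains H2-DM. Ciita encodes the transactivator that switches the whole group on. It binds no DNA itself but docks on factors that sit at an X box and a Y box in the promoters, the RFX complex on the first and NF-Y on the second. Dendritic cells (DCs), B cells and activated macrophages are the usual carriers of class II.

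Promoter stretches are shown because an ordered pair of these boxes is a feature that several of these genes share and that the choice by symbol did not use. The promoters were those of RefSeq on build GRCm38.p6, from 250 bases before to 50 bases after each gene's start, and 7 of the 10 genes had an entry, with 8 promoters in all. H2-Ab1, Cd74 and Ciita had none. Capitals mark the X core, searched as AAC, any 3 bases, TGA, any base and G, and the Y core, searched as ATTGG, the reverse complement of the CCAAT box; both strands were searched and the motifs do not overlap each other.
H2-Eb1: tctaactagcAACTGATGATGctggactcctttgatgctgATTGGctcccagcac
H2-DMb1: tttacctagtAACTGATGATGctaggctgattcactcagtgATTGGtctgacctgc
H2-DMb2: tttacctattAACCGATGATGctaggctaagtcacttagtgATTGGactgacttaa
H2-Ob: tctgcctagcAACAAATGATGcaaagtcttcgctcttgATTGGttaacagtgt
H2-Aa: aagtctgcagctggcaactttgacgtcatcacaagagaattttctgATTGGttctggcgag
H2-Oa: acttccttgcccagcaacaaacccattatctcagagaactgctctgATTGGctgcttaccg

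The stretches lie at chr17:34305768-34305822 on the plus strand for H2-Eb1, chr17:34153089-34153144 (plus) for H2-DMb1, chr17:34145118-34145173 (plus) for H2-DMb2 and chr17:34238810-34238862 (plus) for H2-Ob. Those of H2-Aa and H2-Oa lie at chr17:34287857-34287917 on the minus strand and chr17:34092290-34092350 on the plus strand. In H2-Eb1 the boxes are separated by 19 bases, in H2-DMb1 and H2-DMb2 by 20 and in H2-Ob by 17. An X core followed by a Y core at a distance of 15 to 30 bases was present in 29 of 32851 promoters (0.0883%), against 2.88% with an X core and 37.4% with a Y core anywhere. H2-Aa and H2-Oa held a Y core and no X core spelled this way, and 1 of the 2 promoters of H2-DMa held a Y core alone. H2-DMb1 and H2-DMb2 are close copies, which bears on their counts: of the 90-base windows in the last 400 bases of H2-DMb1 transcripts, 77 of 751 (10.3%) also occur in H2-DMb2, and none was shared between other members. Reads from those windows could have been assigned to neither gene. The overlap was one-sided, as 0 of 317 such windows of H2-DMb2 occur in H2-DMb1. Its part in ratios of H2-DMb2 over H2-DMb1 was not tested.

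The libraries held 16078095 to 22506737 unique molecular identifiers (UMIs, each standing for 1 captured transcript), and 5595 to 6187 cells per library were kept. The KO libraries were shallower, with median depths of 1339 UMIs per cell in KO anti-PD-1 and 1220 in KO IgG, against 1881 in WT anti-PD-1 and 2026 in WT IgG. With 1 library per group there is no spread between mice to compare with, so no test was made, and every difference below is one between single libraries. Cells were clustered without the 10 genes and named by their markers, so a name such as B cell means a cell with the markers of that type. Levels are given as CPM, a gene's share of all UMIs of a cell type in a library on the usual scale, with exact 95% Poisson intervals that cover counting error only. A ratio was called higher or lower when it reached 1.5-fold with at least 20 UMIs over the libraries compared. Asf1a itself, counted in tumour cells, stood at 7.59 CPM (4.25 to 12.5) in KO anti-PD-1 and 9.72 (6.46 to 14.0) in KO IgG, against 29.7 (22.4 to 38.6) in WT anti-PD-1 and 33.5 (25.9 to 42.6) in WT IgG. In all other cells it was between 16.7 and 18.7 CPM in every library. The sources used here do not give the edited site, so whether the counted transcript end would report the edit is not known.

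The I-A chains and the invariant chain were high in DCs, macrophages and B cells in all 4 libraries. H2-Aa stood at 62.1 to 199 CPM in tumour cells, 116 to 244 in T cells, 139 to 324 in plasma cells and 204 to 341 in neutrophils, and these ranges overlapped. It was 591 to 1345 CPM in non-classical monocytes, 745 to 2135 in classical monocytes and 1628 to 2452 in plasmacytoid DCs (pDCs). B cells held 3821 to 4301 CPM, macrophages 4208 to 5906, migratory DCs 7648 to 8078, type 1 conventional DCs (cDC1s) 9784 to 11419 and type 2 (cDC2s) 10951 to 11819. Neighbours in this order overlapped over libraries except at the steps from alveolar macrophages (790 to 1246 CPM) down to natural killer (NK) cells (141 to 323), from pDCs up to B cells, from macrophages up to migratory DCs and from migratory DCs up to cDC1s. Macrophages held 38.1% of all H2-Aa UMIs in KO anti-PD-1, 39.9% in KO IgG, 43.3% in WT anti-PD-1 and 39.4% in WT IgG, while cDC2s held 32.2%, 30.2%, 23.1% and 26.2% of them in the same libraries.

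H2-Ab1 differed from H2-Aa in migratory DCs, where it stood at 4507 to 5797 CPM, below macrophages at 5821 to 7581 CPM and just above B cells at 4047 to 4470. It reached 14376 to 16383 CPM in cDC1s and 13961 to 16058 in cDC2s, ranges that overlapped, as they did for H2-Aa. H2-Eb1 stood at 2497 to 3180 CPM in B cells, 2904 to 4455 in macrophages, 5300 to 6426 in migratory DCs and 9050 to 10413 in cDC2s. Cd74 stood at 12088 to 16607 CPM in macrophages, 13287 to 15580 in migratory DCs, 14358 to 15850 in B cells and 26983 to 31253 in cDC2s. These counts come from transcript ends and were not corrected for length, so levels of different genes are not compared with each other. Levels of at least 1000 CPM in all 4 libraries were found in 5 of 14 cell types for H2-Eb1, 6 for H2-Aa, 7 for H2-Ab1 and 10 for Cd74.

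Ciita was sparse, with 371 UMIs in KO anti-PD-1, 463 in KO IgG, 723 in WT anti-PD-1 and 611 in WT IgG over all cells. It stood at 1.83 to 4.02 CPM in T cells, 27.8 to 45.3 in macrophages, 23.4 to 70.4 in migratory DCs, 96.6 to 113 in B cells, 99.8 to 157 in cDC1s and 111 to 161 in cDC2s. B cells, cDC1s and cDC2s overlapped with each other, and B cells lay above macrophages and migratory DCs without overlap. Across 56 profiles (14 cell types in 4 libraries, on log2 CPM with 10 added), the Pearson r of Ciita with the mean of H2-Aa, H2-Ab1, H2-Eb1 and Cd74 was 0.92, a description in which profiles of a library share its depth and free RNA. The same r was 0.91 for H2-DMa, 0.82 for H2-DMb1 and H2-DMb2, 0.77 for H2-Oa and 0.61 for H2-Ob.

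The genes of peptide exchange parted from the class II chains in an ordered way. H2-DMa, the alpha chain of H2-DM, stood at 230 to 274 CPM in migratory DCs, below the 446 to 531 CPM of B cells, the 589 to 729 of macrophages and the 1176 to 1439 of cDC2s. H2-DMb1 was low in migratory DCs (37.5 to 70.8 CPM) and B cells (85.5 to 114) and high in macrophages (368 to 486), cDC1s (728 to 885) and cDC2s (441 to 531). H2-DMb2 stood at 40.7 to 72.2 CPM in macrophages, 136 to 175 in cDC1s and 178 to 251 in migratory DCs, and was highest in B cells (468 to 587) and cDC2s (489 to 581). The near-copies thus had different leading cell types, and their r over the 56 profiles was 0.53, against 0.95 between H2-DMa and H2-DMb1 and 0.92 between H2-DMb2 and H2-Oa.

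H2-DO, the brake on H2-DM, was a feature of B cells and DCs. H2-Ob stood at 338 CPM in KO anti-PD-1, 380 in KO IgG, 485 in WT anti-PD-1 and 445 in WT IgG in B cells, against 85.3, 84.6, 100 and 97.5 CPM in cDC2s of the same libraries. The log2 ratio of B cells over cDC2s was 1.99 in KO anti-PD-1, 2.17 in KO IgG, 2.28 in WT anti-PD-1 and 2.19 in WT IgG, and the lowest interval bound was 1.57. H2-Oa stood at 14.0 to 34.8 CPM in macrophages and 175 to 269 in B cells and was highest in cDC2s, at 294 to 394. Of the 10 genes, 1 was at least 1.5-fold higher in B cells than in cDC2s in all 4 libraries, where 14.7% of 5417 genes were, and 6 were lower, where 16.5% were.

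**Figure D1:**
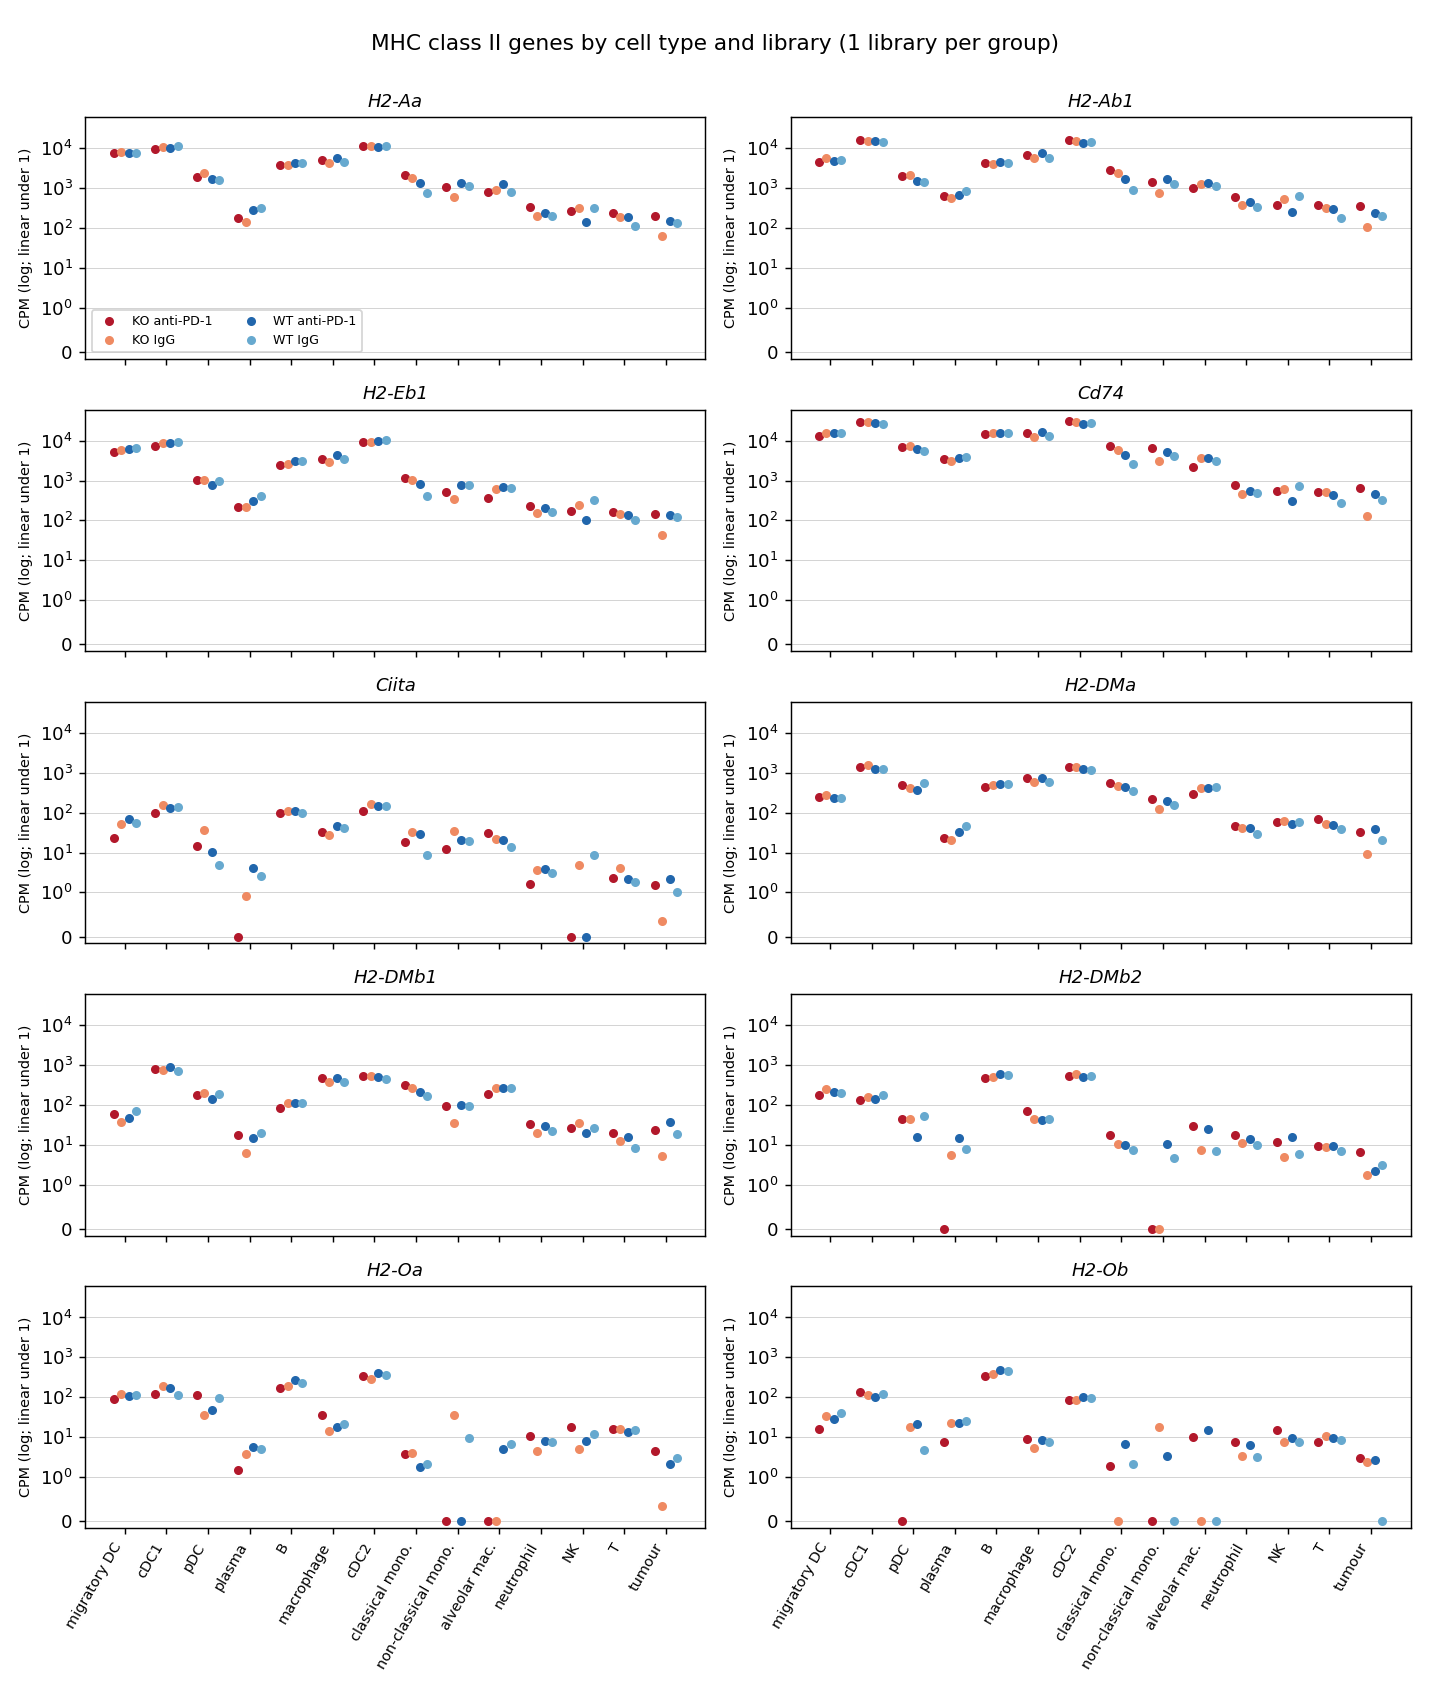
CPM of each of the 10 genes (vertical axis, logarithmic above 1 and linear below) in 14 marker-named cell types (horizontal axis), with 1 point per library. The class II chains and Cd74 are high from B cells to DCs, H2-DMb1 is low in B cells and migratory DCs where H2-DMb2 is not, and H2-Ob is highest in B cells at 338 to 485 CPM.

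Ratios of UMIs within a cell type do not depend on its total, and for the beta chains of H2-DM they set the cell types apart. H2-DMb2 over H2-DMb1 was 5.48 (3.49 to 8.96) in KO anti-PD-1, 4.54 (3.17 to 6.67) in KO IgG, 5.14 (4.19 to 6.36) in WT anti-PD-1 and 5.08 (4.03 to 6.47) in WT IgG in B cells. The same ratio in migratory DCs was 2.94 (1.93 to 4.57), 6.71 (4.01 to 11.9), 4.51 (3.11 to 6.71) and 2.82 (2.12 to 3.79) in the same libraries. It was 0.0406 to 0.0561 in classical monocytes, 0.0837 to 0.151 in macrophages, 0.162 to 0.240 in cDC1s and 0.962 to 1.21 in cDC2s. The order from B cells and migratory DCs through cDC2s to cDC1s and macrophages held in each library, and the intervals of cDC2s were apart from those of B cells, migratory DCs and macrophages. The cDC2s were themselves a mixture: the larger sub-cluster, led by Ccl17, Plet1 and Mgl2 (177 cells in KO anti-PD-1, 126 in KO IgG, 126 in WT anti-PD-1, 104 in WT IgG), had ratios of 1.42, 1.56, 1.56 and 1.66, and the smaller, led by Cd209a (57, 43, 40 and 34 cells), 0.291, 0.299, 0.174 and 0.360. The larger over the smaller sub-cluster was at least 1.5-fold higher for H2-Eb1, H2-DMb2 and H2-Oa in all 4 libraries, where 2.68% of 4321 genes were, and lower for H2-DMb1, where 3.4% were.

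**Figure D2:**
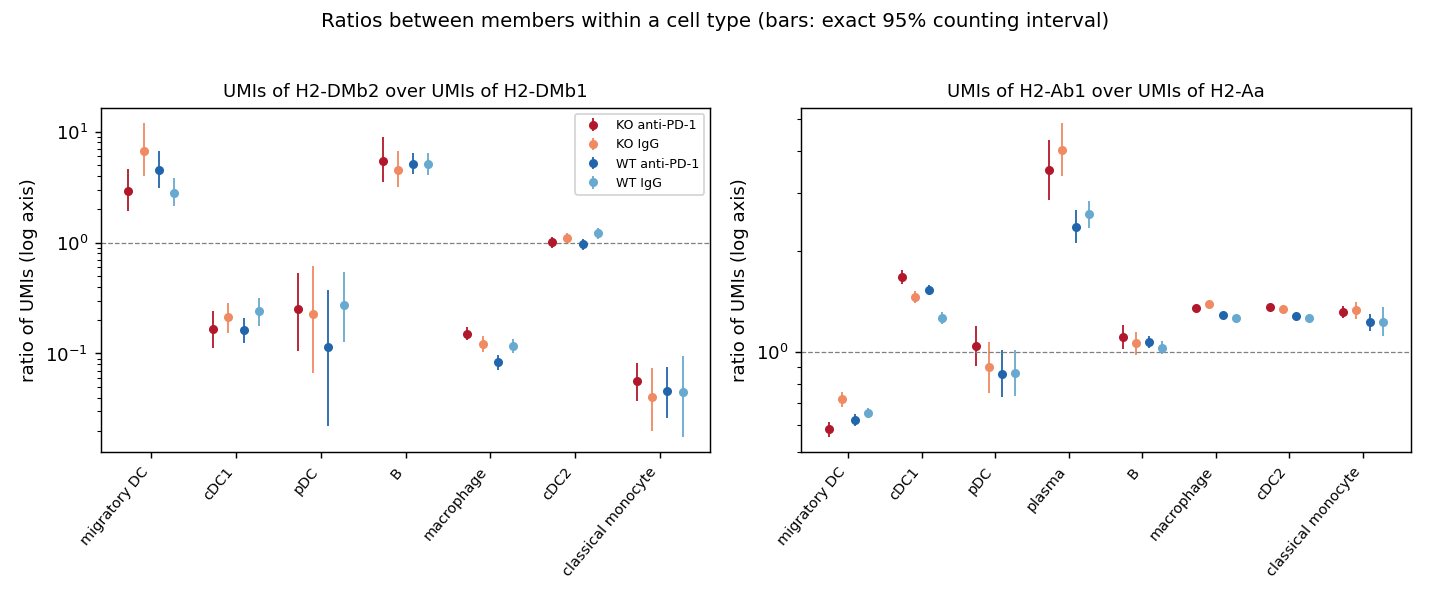
Ratio of UMIs of H2-DMb2 over H2-DMb1 (left) and of H2-Ab1 over H2-Aa (right) on logarithmic axes, by cell type and library, with exact 95% counting intervals as bars. B cells and migratory DCs lie above 1 for H2-DMb2 over H2-DMb1, while macrophages lie between 0.0837 and 0.151; migratory DCs lie below 1 for H2-Ab1 over H2-Aa.

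Migratory DCs, led by Ccl17, Fscn1, Ccl22 and Ccr7, differed from cDC2s in nearly every step of the pathway. These are DCs that have matured and are leaving for lymph nodes, and maturing DCs are known to shut down class II synthesis while holding class II at the surface. Of the 10 genes, 9 were at least 1.5-fold lower in migratory DCs than in cDC2s in all 4 libraries, where 18.4% of 5464 genes were, and none was higher, where 11.5% were. The exception was H2-Aa, at log2 ratios of −0.61 (−0.67 to −0.56) in KO anti-PD-1, −0.51 (−0.56 to −0.45) in KO IgG, −0.49 (−0.54 to −0.45) in WT anti-PD-1 and −0.59 (−0.63 to −0.55) in WT IgG. H2-Ab1, its partner chain, was lower by far more, at −1.83, −1.41, −1.52 and −1.54 in the same libraries.

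The difference was largest for H2-DMb1, in each of the libraries, on 31, 17, 35 and 67 UMIs in migratory DCs. It had log2 ratios of −3.13 (−3.70 to −2.61) in KO anti-PD-1, −3.82 (−4.61 to −3.13) in KO IgG, −3.45 (−3.98 to −2.96) in WT anti-PD-1 and −2.64 (−3.03 to −2.27) in WT IgG. H2-DMa lay between −2.50 and −2.33, H2-DMb2 between −1.58 and −1.21, H2-Oa between −1.91 and −1.33 and H2-Ob between −2.45 and −1.32. Ciita lay between −2.25 and −1.08, Cd74 between −1.23 and −0.82 and H2-Eb1 between −0.84 and −0.62. Within the cell, H2-Ab1 over H2-Aa was 0.584 (0.554 to 0.615) in KO anti-PD-1, 0.718 (0.682 to 0.755) in KO IgG, 0.624 (0.598 to 0.650) in WT anti-PD-1 and 0.653 (0.630 to 0.678) in WT IgG in migratory DCs, against 1.36, 1.34, 1.27 and 1.26 in cDC2s. H2-DMa over H2-Aa was 0.0295 to 0.0339 in migratory DCs and 0.102 to 0.122 in cDC2s. Migratory DCs were shallower than cDC2s in each library (medians of 3901 against 5317.5 UMIs in KO anti-PD-1 and 7161 against 8863.5 in WT IgG); the part of depth in these differences was not tested, and ratios within a cell type do not use it.

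**Figure D3:**
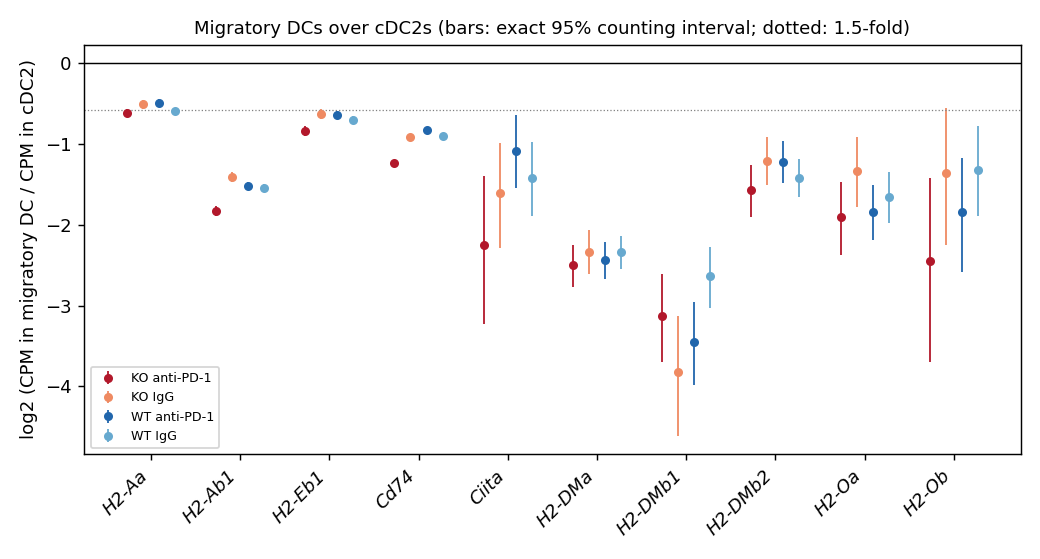
Log2 ratio of CPM in migratory DCs over cDC2s for the 10 genes (vertical axis), with 1 point per library, exact 95% counting intervals as bars and a dotted line at 1.5-fold lower. H2-Aa lies at −0.61 to −0.49, H2-DMb1 at −3.82 to −2.64 and the other genes between.

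Other genes of the pathway, a list of 32 regulators, proteases, turnover and costimulation genes, did not all lie lower in migratory DCs. H2-Eb2, another class II E beta gene, stood at 80.0 CPM in KO anti-PD-1, 110 in KO IgG, 135 in WT anti-PD-1 and 87.6 in WT IgG in migratory DCs, against 9.40, 2.76, 13.8 and 6.55 in cDC2s, and at 48.3 to 69.8 CPM in B cells. Ctss, the protease that trims the invariant chain, stood at 1138 to 1491 CPM in migratory DCs and 2371 to 2574 in cDC2s. March1, which marks class II for degradation, stood at 1.33 to 6.62 CPM in migratory DCs and 26.6 to 53.2 in cDC2s, while Cd83, which opposes it, stood at 502 to 611 CPM in migratory DCs and 187 to 241 in cDC2s. Cd40, a costimulatory receptor, stood at 106 to 201 CPM in migratory DCs and 36.8 to 43.5 in cDC2s. None of these ranges overlapped between the cell types.

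Further contrasts between cell types showed which genes of the group are low where others are not. In cDC1s over cDC2s, 2 of the 10 genes, H2-DMb2 and H2-Oa, were at least 1.5-fold lower in all 4 libraries, where 7.84% of 4973 genes were; H2-Oa lay between −1.62 and −0.63 and H2-DMb2 between −1.96 and −1.61. In macrophages over cDC2s, 9 were lower, where 6.23% of 8461 genes were, from Cd74 at −1.28 to −0.70 to H2-Oa at −4.50 to −3.31, and H2-DMb1 was the exception at −0.53 to −0.06. In pDCs over cDC2s all 10 were lower, where 11.3% of 4816 genes were. Plasma cells, the antibody-secreting descendants of B cells, had all 10 lower than B cells, where 57.3% of 3062 genes were, so the count says little about these genes. Within that count the genes differed. Cd74 stood at 3019 to 3980 CPM in plasma cells against 14358 to 15850 in B cells, whereas H2-Aa was 139 to 324 against 3821 to 4301, and Cd74 over H2-Aa was 12.3 to 21.8 in plasma cells against 3.63 to 4.09 in B cells.

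Anti-PD-1 against IgG was asked within each tumour genotype, first in macrophages, where most of the group stood somewhat higher under the antibody. H2-Aa stood at 5178 CPM in KO anti-PD-1 against 4208 in KO IgG, and at 5906 in WT anti-PD-1 against 4609 in WT IgG. The log2 ratio was 0.30 (0.27 to 0.33) in KO and 0.36 (0.33 to 0.38) in WT. H2-Ab1 (0.26 in KO, 0.38 in WT), H2-Eb1 (0.27 and 0.33), Cd74 (0.33 and 0.33), H2-DMa (0.31 and 0.31) and H2-DMb1 (0.38 and 0.34) were higher by like amounts, under 1.5-fold but past counting error. The median over the 10 genes was 0.32 in KO, beside −0.07 over 9645 genes, and 0.32 in WT, beside 0.02 over 9939 genes. All 10 lay above 0 in KO and 8 in WT. In KO, 3 of 10 were called higher, where 7.3% of genes were, and none lower, where 11.3% were; in WT none was called higher, where 4.81% were, or lower, where 5.12% were.

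The genes called in KO macrophages were low in macrophages. H2-Oa stood at 34.8 CPM (120 UMIs) in KO anti-PD-1 against 14.0 (55 UMIs) in KO IgG, a log2 ratio of 1.31 (0.84 to 1.80), and at 17.4 in WT anti-PD-1 against 21.7 in WT IgG, −0.32 (−0.77 to 0.12). H2-DMb2 was 0.69 (0.40 to 0.97) in KO and −0.15 (−0.44 to 0.14) in WT, and H2-Ob was 0.75 (−0.10 to 1.62) in KO and 0.18 (−0.53 to 0.89) in WT. The difference between the genotypes was not tested. A small sub-cluster that carries both Ccl17 and C1qa (31 cells in KO anti-PD-1, 14 in KO IgG, 15 in WT anti-PD-1 and 20 in WT IgG) moved with these values. It held 82 of the 120 H2-Oa UMIs of macrophages in KO anti-PD-1, 22 of 55 in KO IgG, 46 of 79 in WT anti-PD-1 and 73 of 100 in WT IgG, and its part in the differences was not tested.

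The sub-clusters of macrophages differed in these values. In the largest, led by Gpnmb, Fabp5 and Trem2 (sub-cluster 0), H2-Aa stood at 3848 CPM in KO anti-PD-1 against 2660 in KO IgG, and at 4884 in WT anti-PD-1 against 3481 in WT IgG. There 4 of 9 measured genes were called higher in KO, where 6.04% of genes were, with a median of 0.53, and 3 of 9 in WT, where 6.69% were, with a median of 0.49. In a cluster led by Arg1 and Ccl9 (sub-cluster 10), 5 of 6 were higher in WT, where 13.4% of genes were (median 0.83), and 1 of 6 in KO, where 10.3% were (median 0.30). In a cluster with high levels, led by Aif1 and C1qa (sub-cluster 5), H2-Aa stood at 8589 and 8842 CPM in KO anti-PD-1 and KO IgG and 8818 and 8177 in WT anti-PD-1 and WT IgG, and the medians were −0.04 in KO and 0.08 in WT. Over sub-clusters 0, 2, 5 and 10, H2-Aa was higher under anti-PD-1 in 3 in KO (−0.04 to 0.53) and in 4 in WT (0.11 to 0.73).

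Cells that should carry little class II differed in direction among themselves. In neutrophils the median log2 ratio of anti-PD-1 over IgG was 0.70 over 9 measured genes in KO, with 7 called higher, where 10.5% of genes were, and 0.36 in WT, with 1 called higher, where 5.53% were. In T cells the medians over 9 genes were 0.16 in KO and 0.46 in WT, beside 0.02 and 0.11 over all genes measured. H2-Aa in T cells was 0.35 (0.16 to 0.55) in KO and 0.68 (0.53 to 0.84) in WT, past 1.5-fold in WT. In NK cells the medians over 6 genes were −0.27 in KO and −1.24 in WT, with 4 lower in WT, where 8.16% of genes were. Of the UMIs of H2-Aa, H2-Ab1, H2-Eb1 and Cd74 in NK cells, 1 cell held 914 of 1389 in WT IgG and 368 of 699 in KO IgG. The top cell held 53 of 706 in KO anti-PD-1 and 39 of 498 in WT anti-PD-1. The part of these cells in the NK ratios was not tested. The amounts were small: neutrophils held 1.72 UMIs per cell of H2-Aa, H2-Ab1, H2-Eb1 and Cd74 together in KO anti-PD-1, 1.17 in KO IgG, 1.76 in WT anti-PD-1 and 1.65 in WT IgG, and NK cells held 2.30, 2.85, 1.82 and 5.47 in the same libraries. The part of such UMIs in the macrophage values was not tested.

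Some regulators and costimulators of the pathway list were higher in the same macrophages. In KO, 28 of the 32 were measured, 6 were called higher and 1, March1, lower, where 7.3% and 11.3% of all genes were. In WT 28 were measured, 4 called higher and none lower, where 4.81% and 5.12% of all genes were. Irf1, an interferon-induced regulator of Ciita, was 0.87 (0.40 to 1.36) in KO and 0.96 (0.61 to 1.31) in WT. Cd40 was 1.76 (1.26 to 2.28) in KO and 0.74 (0.39 to 1.10) in WT. Ciita itself was 0.27 (−0.12 to 0.66) in KO and 0.11 (−0.18 to 0.40) in WT, intervals that include 0.

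**Figure D4:**
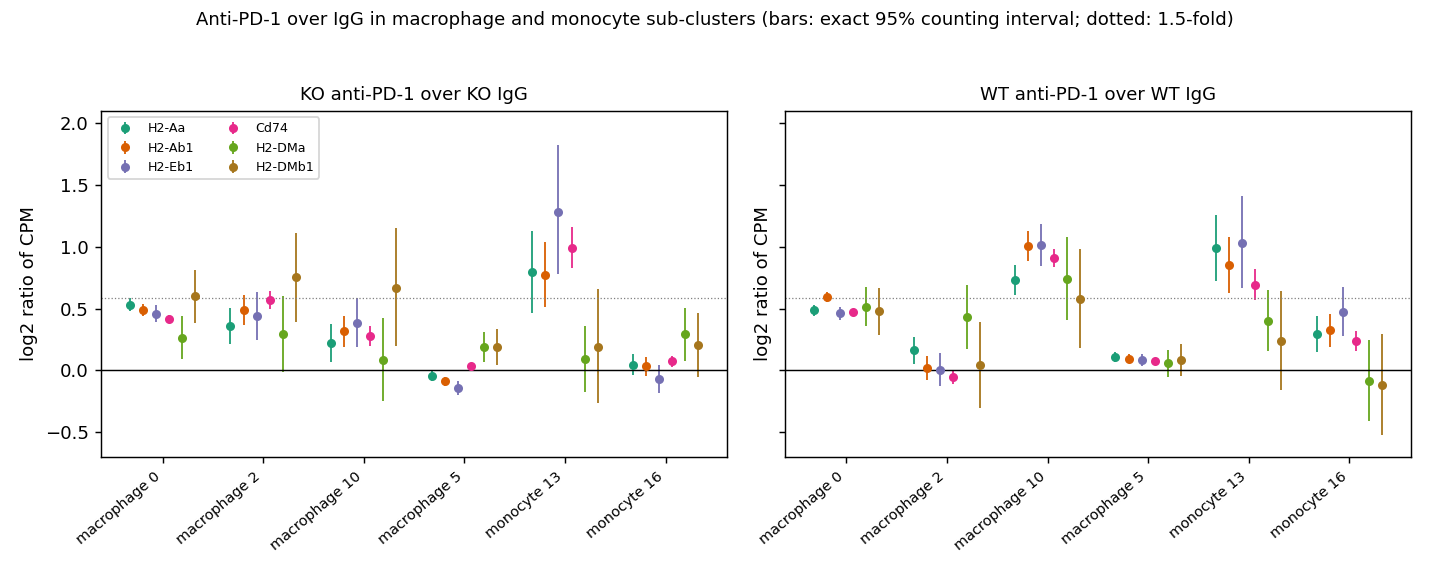
Log2 ratio of CPM, KO anti-PD-1 over KO IgG (left) and WT anti-PD-1 over WT IgG (right), for 6 of the genes in 4 macrophage and 2 classical monocyte sub-clusters, with exact 95% counting intervals as bars and a dotted line at 1.5-fold. Sub-clusters 0, 10 and 13 lie above 0 in both genotypes for all 6 genes, and sub-cluster 5 lies near 0 for the class II chains.

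Classical monocytes, the blood-borne precursors of tissue macrophages, had a larger median of anti-PD-1 over IgG than macrophages in WT and a smaller one in KO, and the make-up of the class moved with these values. H2-Aa stood at 2135 CPM in KO anti-PD-1, 1823 in KO IgG, 1375 in WT anti-PD-1 and 745 in WT IgG. In WT, 5 of 8 measured genes were higher under anti-PD-1, where 8.67% of genes were (median 0.82), and in KO 1 of 8 was higher, where 7.17% were, and 1 lower, where 12.3% were (median 0.25). In KO IgG over WT IgG, 6 of 7 were higher, where 10.5% of genes were (median 1.29). The class held a sub-cluster with H2-Aa at 3566 to 4378 CPM (sub-cluster 16, led by Ms4a6c, Clec4a3 and Aif1) and one at 188 to 413 CPM (sub-cluster 13, led by F13a1, Chil3 and Vcan). Sub-cluster 16 over 13 was higher in all 4 libraries for the 6 genes measured, where 1.52% of 4210 genes were. Sub-cluster 16 held 227 cells in KO anti-PD-1, 116 in KO IgG, 89 in WT anti-PD-1 and 31 in WT IgG, and sub-cluster 13 held 219, 141, 235 and 137 cells; the part of this make-up in the differences of the class was not tested.

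The same comparisons were made within the sub-clusters. In sub-cluster 13, 4 of 6 genes were higher under anti-PD-1 in KO, where 8.71% of genes were (median 0.78), and 5 of 7 in WT, where 9.43% were (median 0.85). Cd74 there was 0.99 (0.83 to 1.16) in KO and 0.70 (0.57 to 0.82) in WT. In KO IgG over WT IgG the median over 6 genes in sub-cluster 13 was −0.06, with 1 lower, where 9.16% of genes were. In sub-cluster 16 the median of anti-PD-1 over IgG was 0.06 over 8 genes in KO and 0.30 over 7 in WT. H2-Aa in sub-cluster 13, at 327 CPM in KO anti-PD-1, 188 in KO IgG, 413 in WT anti-PD-1 and 208 in WT IgG, stood beside 341, 207, 237 and 204 CPM in neutrophils of the same libraries, and the part of free RNA at this level was not tested.

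The cDC2s and B cells, both professional antigen-presenting cells, had few calls. In cDC1s and migratory DCs some of the genes were called. Of these calls, only those of KO anti-PD-1 over KO IgG in migratory DCs are counted below. In cDC2s none of the 10 genes was called in any of the 4 comparisons. Of all genes, 7.5% were higher and 13.5% lower in KO anti-PD-1 over KO IgG, and 10.0% and 6.01% in WT anti-PD-1 over WT IgG. The shares were 6.95% and 16.2% in KO anti-PD-1 over WT anti-PD-1, and 9.17% and 7.62% in KO IgG over WT IgG. H2-Aa there was 0.04 (0.01 to 0.08) for KO anti-PD-1 over KO IgG and −0.08 (−0.11 to −0.04) for WT anti-PD-1 over WT IgG. Over the 4 comparisons the gene farthest from 0 in cDC2s was Ciita, at −0.53 (−0.86 to −0.21) in KO, with 111 CPM (142 UMIs) in KO anti-PD-1 against 161 (175 UMIs) in KO IgG. It was also lower in migratory DCs, at −1.18 (−2.31 to −0.12), on 12 UMIs in KO anti-PD-1 and 24 in KO IgG; there 2 of the 10 genes were lower, where 15.5% of genes were, and 1 was higher, where 11.5% were. In WT, Ciita was −0.01 (−0.31 to 0.29) in cDC2s and 0.33 (−0.25 to 0.91) in migratory DCs.

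In B cells, anti-PD-1 over IgG gave medians of −0.13 in KO, where 12.3% of genes were higher and 15.8% lower, and 0.04 in WT, where 8.84% and 6.96% were, with none of the 10 called in either. KO anti-PD-1 over WT anti-PD-1 had all 10 below 0 (median −0.29, beside −0.01 over 5611 genes) and 1 called lower, where 18.9% of genes were, against 14.6% higher. That gene was H2-Oa, at 175 CPM against 269, a log2 ratio of −0.62 (−1.11 to −0.17). Neutrophil markers moved with this: the summed level of 8 neutrophil genes in B cells was 5247 CPM in KO anti-PD-1, 2253 in KO IgG, 933 in WT anti-PD-1 and 1059 in WT IgG, and their part in the result was not tested.

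In tumour cells, class II UMIs were few, and the values differed between libraries. H2-Aa stood at 199 CPM in KO anti-PD-1, 62.1 in KO IgG, 154 in WT anti-PD-1 and 134 in WT IgG, among 148, 233, 126 and 131 cells. Cd74 stood at 665 CPM in KO anti-PD-1, 131 in KO IgG, 453 in WT anti-PD-1 and 319 in WT IgG. The KO IgG library was the lowest for both. Ciita had 3, 1, 4 and 2 UMIs in these cells, at or near the floor of 3 counts in every library.

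KO anti-PD-1 over KO IgG gave 6 of 6 measured genes higher, where 10.1% of genes were, with a median of 1.79 beside −0.10 over 9622 genes, from 1.68 (1.42 to 1.94) for H2-Aa to 2.35 (2.18 to 2.52) for Cd74. WT anti-PD-1 over WT IgG gave 2 of 6 higher, where 7.92% of genes were (median 0.40). KO IgG over WT IgG gave 6 of 6 lower, where 15.4% of genes were (median −1.22), and KO anti-PD-1 over WT anti-PD-1 gave 1 of 6 lower, where 17.5% were, and none higher, where 12.5% were (median 0.24). In 3 of the libraries most of these UMIs sat in a few cells. The 5 cells with the most UMIs of H2-Aa, H2-Ab1, H2-Eb1 and Cd74 held 60.3% of them in KO anti-PD-1, 14.1% in KO IgG, 54.3% in WT anti-PD-1 and 50.7% in WT IgG. Of the 19, 4, 11 and 9 cells with 20 or more such UMIs, 18, 3, 10 and 9 also held a UMI of Tyrobp, an adaptor gene of myeloid and NK cells. Without the top cell of each gene, the median of KO IgG over WT IgG was −0.43 and that of KO anti-PD-1 over WT anti-PD-1 was 0.72. From the mean of each cell's own CPM, the medians were 0.80 for KO anti-PD-1 over KO IgG and −0.16 for WT anti-PD-1 over WT IgG, so the direction in WT was not kept. The median tumour cell held 5 such UMIs in KO anti-PD-1, 3 in KO IgG, 5 in WT anti-PD-1 and 5 in WT IgG.

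Sub-cluster 5 of the tumour cells, with 23 cells in KO anti-PD-1, 19 in KO IgG, 13 in WT anti-PD-1 and 28 in WT IgG, carried neutrophil markers at 6734 to 12740 CPM besides keratins. Without it, H2-Aa stood at 105 CPM in KO anti-PD-1, 53.4 in KO IgG, 76.6 in WT anti-PD-1 and 50.02 in WT IgG. All 6 genes were still higher in KO anti-PD-1 over KO IgG, where 8.8% of genes were (median 1.48), and 4 of 6 in WT anti-PD-1 over WT IgG, where 8.8% were (median 0.84). KO IgG over WT IgG then had 1 of 6 lower, where 14.3% of genes were, and a median of 0.00, so the difference between the IgG libraries was not kept. KO anti-PD-1 over WT anti-PD-1 then had 3 of 6 higher, where 11.7% of genes were, and none lower, where 19.1% were (median 0.60). Without sub-cluster 5, many UMIs of H2-Aa, H2-Ab1, H2-Eb1 and Cd74 still sat in a few cells. The 5 cells with the most held 51.1% of them in KO anti-PD-1, 14.8% in KO IgG, 30.0% in WT anti-PD-1 and 19.9% in WT IgG. Of the 12, 3, 7 and 3 cells with 20 or more such UMIs, 11, 2, 6 and 3 also held a UMI of Tyrobp. In the cells without Tyrobp these genes together stood at 506, 372, 576 and 390 CPM. Macrophage markers other than Spp1, which tumour cells also held, summed to 984 CPM in KO anti-PD-1, 194 in KO IgG, 358 in WT anti-PD-1 and 506 in WT IgG over all tumour cells, and to 167, 169, 176 and 154 CPM without sub-cluster 5. Apoe made up most of each sum, at 803, 153, 197 and 341 CPM over all tumour cells. Without sub-cluster 5 it stood at 131, 132, 136 and 115 CPM. C1qa stood at 22.3, 4.86, 49.6 and 45.7 CPM over all tumour cells, and C1qb, C1qc and Arg1 were also highest in WT. Gpnmb, Trem2 and Ms4a7 were instead highest in KO anti-PD-1. Over all tumour cells Gpnmb stood at 98.2, 15.6, 10.3 and 8.63 CPM and Trem2 at 16.7, 2.08, 4.32 and 7.62 CPM. Without sub-cluster 5 C1qa stood at 11.7, 3.91, 10.2 and 8.89 CPM. C1qb was then lower in KO anti-PD-1 (6.12 CPM) than in KO IgG (8.54). The same held for Gpnmb (10.0 against 14.6) and Arg1 (0.556 against 3.91), while Trem2 was higher (2.78 against 1.42). The part of macrophage RNA here was not tested.

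Background limits what these values say. T cells held 2.54 UMIs per cell of the same 4 genes in KO anti-PD-1, 2.24 in KO IgG, 2.55 in WT anti-PD-1 and 1.90 in WT IgG, at median depths of 1635, 1665.5, 2074 and 2456 UMIs. The median T cell held 2, 1, 2 and 1 such UMIs, while the top T cell held 285, 584, 492 and 83. The 5 cells with the most held 16.6%, 35.5%, 19.8% and 7.49% of them. The part of these cells in values taken less the UMIs of T cells was not tested. Tumour cells without a Tyrobp UMI (58, 101, 50 and 47 cells) held 3.45 per cell in KO anti-PD-1, 2.85 in KO IgG, 4.46 in WT anti-PD-1 and 3.19 in WT IgG, at median depths over all tumour cells of 8069, 9459, 9152 and 9427 UMIs. Cells with an H2-Aa UMI made up 53.4%, 48.1%, 61.1% and 54.2% of tumour cells in KO anti-PD-1, KO IgG, WT anti-PD-1 and WT IgG and 31.7%, 21.1%, 28.7% and 26.8% of T cells. At a common 1000 UMIs per cell the shares were 14.6%, 7.98%, 11.7% and 14.2% of tumour cells, leaving out 18, 20, 15 and 18 shallower cells, and 17.8%, 11.8%, 14.1% and 11.05% of T cells, leaving out 272, 189, 300 and 159. The exact binomial intervals of tumour cells and T cells overlapped in all 4 libraries, and in KO anti-PD-1 they ran from 9.03% to 21.9% in tumour cells and from 15.2% to 20.6% in T cells. Tumour cells were the deeper of the 2, so thinning took away a larger part of their UMIs, free RNA included. The overlap therefore cannot decide whether tumour cells held more than background.

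**Figure D5:**
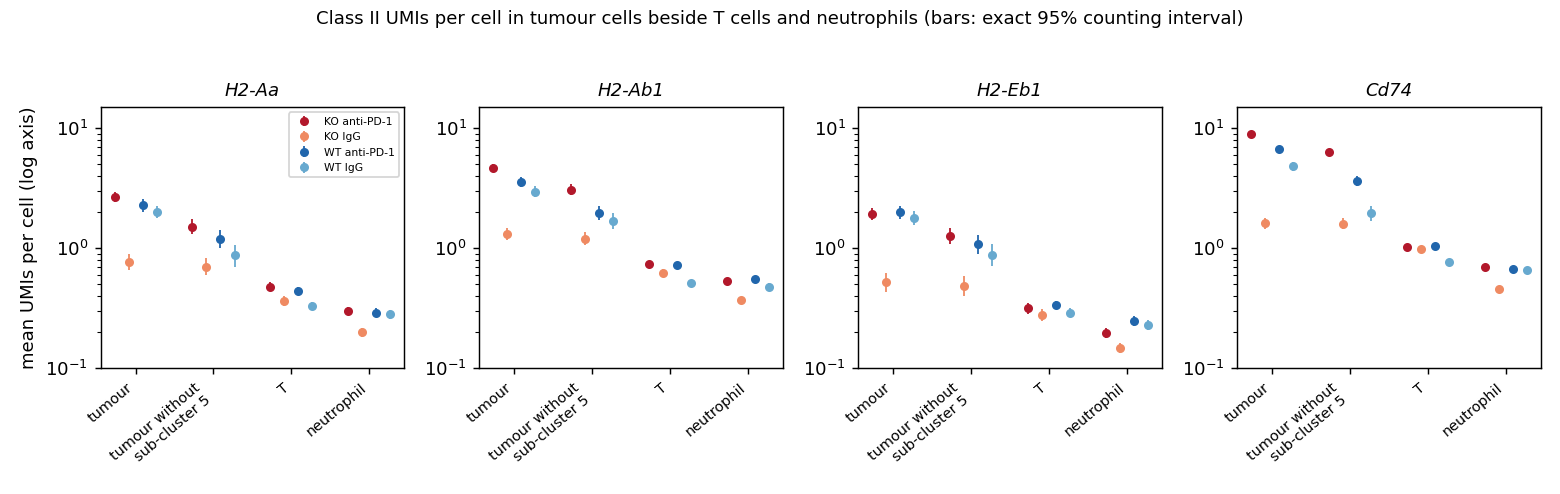
Mean UMIs per cell (logarithmic axis) of H2-Aa, H2-Ab1, H2-Eb1 and Cd74 in tumour cells, in tumour cells without sub-cluster 5, in T cells and in neutrophils, with 1 point per library and exact 95% counting intervals as bars. In tumour cells KO IgG lies below the other libraries, and without sub-cluster 5 the WT IgG library moves towards it.

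Tumour genotype was compared at matched treatment. In macrophages, KO anti-PD-1 over WT anti-PD-1 had 2 genes higher, where 6.86% were (H2-DMb2 at 0.83 and H2-Oa at 1.00), and none lower, where 10.8% were. KO IgG over WT IgG had none higher, where 5.91% were, and 2 lower, where 6.23% were (Ciita at −0.59 and H2-Oa at −0.63). The I-A chains were −0.19 for H2-Aa and −0.11 for H2-Ab1 under anti-PD-1, and −0.13 and 0.00 under IgG. H2-Eb1 was lower in KO by more than the I-A chains, at −0.35 (−0.38 to −0.32) under anti-PD-1 and −0.29 (−0.32 to −0.25) under IgG. H2-Eb1 over H2-Aa was 0.676 in KO anti-PD-1 and 0.690 in KO IgG against 0.754 in WT anti-PD-1 and 0.768 in WT IgG in macrophages, 0.803 and 0.788 against 0.881 and 0.903 in cDC2s, 0.652 and 0.694 against 0.748 and 0.739 in B cells, and 0.686 and 0.727 against 0.791 and 0.840 in migratory DCs. In these 4 cell types both KO libraries lay below both WT libraries, and the same held in cDC1s, neutrophils and tumour cells. In pDCs, classical monocytes, plasma cells, T cells and NK cells they overlapped. Neutrophils and tumour cells held few of these UMIs per cell, and the part of free RNA in their ratios was not tested. The ratio in non-classical monocytes and alveolar macrophages is not described. UMIs of H2-Eb1 against H2-Aa in cDC1s were 1856 against 2452 in KO anti-PD-1, 2823 against 3512 in KO IgG, 4140 against 4770 in WT anti-PD-1 and 3186 against 3920 in WT IgG. In neutrophils they were 425 against 645, 408 against 552, 422 against 495 and 428 against 526. With 1 library per group the genotype, the mice and the library cannot be told apart.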

How the data were processed

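The 4 libraries of lung cells were sequenced by the authors and processed with Cell Ranger 3.0.0, per the file headers, which gave the deposited UMI count of each gene in each cell barcode; bcl2fastq is named in the submitters' processing notes. The aligner settings are not given in the sources used here, and the genome build could not be settled, since those notes name a human build and the gene IDs are those of mouse, so no coordinate comes from the count files. Each library held 6074 to 6683 barcodes. Reads were not re-processed.

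Cells with under 200 detected genes, over 10% mitochondrial UMIs or a Scrublet score above 0.25 (82 to 104 cells per library) were left out. Cells were clustered with scanpy 1.11.5 on Python 3.11.15 (2000 variable genes without the 10 described, 30 principal components, 15 neighbours, Leiden resolution 1), and mixed clusters were clustered again. A cluster was named for the marker list with the highest mean score, of at least 1 and at least 0.5 above the next, with 3 or more markers in 10% of its cells; this naming rule was set after a first clustering had been seen. Cell barcodes shared between libraries were not counted, because the barcode list used here fits 1 matrix only.

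Some results on the pathway list are not reported here. UMIs were summed per cell type and library, and types with under 20 cells in a library were not compared. Exact conditional Poisson intervals came from SciPy 1.17.1. The interval code was tested on simulated data. The 10 genes, the pathway list and the marker lists were chosen with earlier results of these data known. The 10 genes are given, singly or by their median and counts, in the cell types described. Comparisons between libraries in pDCs, cDC1s, plasma cells and alveolar macrophages were computed and are not described. Also named are pathway genes at least 1.5-fold different with an interval that leaves out 0 or that describe migratory DCs (these last chosen after their values were seen), and the 10 other genes whose profile is most like the group's. Alternatives were other filters on cells, no doublet removal, clustering with the 10 genes, a higher Leiden resolution, each cell's own CPM, size factors, leaving out the top cell, no UMI minimum, thinning to 1000 UMIs, and a free RNA correction for tumour cells. Leaving out tumour sub-cluster 5 was added after seeing the data.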

Additional observations from a re-analysis of the deposited data

Results flagged for a closer look

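Ciita in classical monocytes differed in direction between tumour genotypes. Its log2 ratio of anti-PD-1 over IgG was −0.85 (−1.61 to −0.10) in KO and 1.80 (0.71 to 3.09) in WT, and the difference between these was not tested. It rested on 30 UMIs in KO anti-PD-1, 34 in KO IgG, 49 in WT anti-PD-1 and 8 in WT IgG. In the class II-rich sub-cluster 16 the ratios were −0.98 (−1.86 to −0.10) in KO, on 23 and 25 UMIs, and 1.88 (0.20 to 4.24) in WT, on 30 UMIs in WT anti-PD-1 and 3 in WT IgG.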

How the results depend on the processing

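No paired analysis was possible because each group is 1 library with no replicate number. Over the median log2 ratios, levels and shares, 116 values under an alternative stayed within their counting interval, 27 moved beyond it, some of these across 0, and 1 more, past 1.5-fold as reported, changed sign. In tumour cells, KO anti-PD-1 over KO IgG (1.79) was 1.30 without doublet removal, 0.80 from each cell's own CPM and 2.64 less the UMIs of T cells. KO anti-PD-1 over WT anti-PD-1 (0.24) was −0.00882 with 500 genes per cell, −0.24 from each cell's own CPM, 0.72 without the top cell and 0.60 without sub-cluster 5. KO IgG over WT IgG (−1.22) was −0.45 without doublet removal, −0.43 without the top cell, −2.35 less T-cell UMIs and 0.0033 without sub-cluster 5, where H2-Aa (0.093), Cd74 (0.12) and H2-DMa (0.29) turned positive. WT anti-PD-1 over WT IgG (0.40) was −0.16 from each cell's own CPM and 0.84 without sub-cluster 5. H2-DMb1 in tumour cells was 0.40 from each cell's own CPM in KO anti-PD-1 over WT anti-PD-1 (−0.65 as reported) and −0.89 in WT anti-PD-1 over WT IgG (0.99).

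In monocytes and macrophages together, KO anti-PD-1 over KO IgG (0.25) was 0.37 with the genes kept in the clustering and 0.13 at Leiden resolution 2, and WT anti-PD-1 over WT IgG (0.24) was 0.29 with the genes kept. KO anti-PD-1 over WT anti-PD-1 (−0.05) was −0.086 with 500 genes per cell, −0.10 with the genes kept, −0.11 at resolution 2 and 0.061 from each cell's own CPM. KO IgG over WT IgG (−0.06) was −0.22 with the genes kept and 0.076 from each cell's own CPM, and H2-Oa there was 0.23 with 500 genes per cell. In conventional DCs, KO anti-PD-1 over KO IgG (0.00) was 0.062 with size factors, and KO IgG over WT IgG (0.20) was 0.054 from each cell's own CPM. Thinning to 1000 UMIs gave H2-Aa shares in tumour cells of 14.6% in KO anti-PD-1, 7.98% in KO IgG, 11.7% in WT anti-PD-1 and 14.2% in WT IgG, against 53.4%, 48.1%, 61.1% and 54.2% unthinned. No B cell median moved. The causes of these changes were not tested beyond what each alternative leaves out. Intervals cover counting error only, so differences between mice and between libraries are not measured. Ciita, H2-Oa and H2-Ob rest on under 100 UMIs in many cell types, and 4 of the 10 genes were too sparse to compare in tumour cells.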

Other observations

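The 10 genes outside the group whose levels followed it most closely over the 56 profiles, by Pearson r with the mean of H2-Aa, H2-Ab1, H2-Eb1 and Cd74 among 8524 genes ranked, were led by Pkib, an inhibitor of protein kinase A (0.89), and Plekho1 (0.89), with Gdi2 at 0.86. They also held the costimulatory ligand Cd86 (0.85), the maturation marker Cd83 (0.82), Napsa (0.80), Prcp (0.80), Ly86 (0.79), Fgd2 (0.78) and Irf5 (0.78). These r describe shared cell types, and profiles of a library share its depth and free RNA. Pkib was highest in migratory DCs, with a median over libraries of 309 CPM there and 217 in cDC2s, whereas the class II chains were lower in migratory DCs.

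Non-classical monocytes had few cells (42 in KO anti-PD-1, 29 in KO IgG, 124 in WT anti-PD-1 and 78 in WT IgG) and a median log2 ratio of 0.86 over 5 genes in KO anti-PD-1 over KO IgG. In the same cells WT anti-PD-1 over WT IgG gave 0.26 over 6 genes, and KO anti-PD-1 over WT anti-PD-1 gave −0.17. KO IgG over WT IgG gave −0.84 over 6 genes.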
